A study of Mus musculus with 20 samples.

Results

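The second mouse cohort of this series comprised 10 female C57BL/6J mice, 5 that had undergone coronary artery ligation (female MI, for myocardial infarction) and 5 that had undergone sham surgery (female sham). They were selected by the labels of their arrays and make up 10 of the 20 arrays of the series; the other 10 arrays carry the same 2 operations in males. Every mouse of both groups was 12 to 15 weeks old, and RNA came from the left ventricle 3 days after surgery with the infarct left out, 1 array per mouse. The labels name no transgene, drug or further treatment in either group, and infarct size and the distance of the sampled tissue from the infarct were not analysed here. The series asks, by its title, about gene expression and survival of females after infarction, and survival itself was not analysed here.

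When a coronary artery is tied off, the muscle it feeds dies, neutrophils and then monocytes enter the ventricle, and fibroblasts divide and begin to lay down matrix. The muscle that survives beyond the infarct carries more load, switches on stress genes of its own and is known to lower its use of fatty acids. The tissue was bulk ventricle, so fewer cells of a type and less RNA per cell cannot be told apart in any value below. The heart muscle label fitted the arrays: Myh6, the main myosin heavy chain of the adult mouse ventricle, lay between 13.32 and 13.53 in female MI arrays and between 13.44 and 13.58 in female sham arrays. Xist, the RNA of the inactive X chromosome, was detected on all 10 arrays. Levels are log2 normalised probe intensities throughout, on a scale whose highest value was 13.99, and every difference is female MI minus female sham.

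A female MI array detected 17363 ± 197 probes and a female sham array 17348 ± 604 (SD, n = 5 each; difference 15.6, exact two-sided permutation p = 0.976, smallest possible p 0.00794). The arrays lay on 3 BeadChips that split the groups unevenly: 4 MI and 2 sham arrays shared chip 3, 1 of each lay on chip 4, and the remaining 2 sham arrays lay on chip 2. Female MI 4 and female sham 2 sat in position F, the last of their chip, and there 268 and 656 genes, with 159 in common, lay more than 1 log2 unit below the other arrays of the same group. Of those 159 genes 6 were called below, against 32.7% of all genes. The choice itself makes a call unlikely, because a distant array in each group widens the spread. Of the 4231 calls 3580 held without the position F arrays. Female sham 2 also had the lowest correlation with its own group (r = 0.9517 across genes, against up to 0.9949 for the other arrays). The mice are numbered here by the order of their arrays within each group, as the labels give no mouse numbers. No label states that a ligated mouse was paired with a sham mouse.

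The ventricles of ligated females differed from those of sham females across a broad part of the array. Of 12921 genes and unnamed probes tested, 2126 (16.5%) were higher and 2105 (16.3%) were lower in female MI, 4231 (32.7%) together, called where limma's Benjamini-Hochberg adjusted p lay under 0.05. Adjusted p values of genes below come from that limma fit, with n = 5 per group. The fit takes its spread from all 20 arrays, males included. On the 10 female arrays alone limma called 1700 genes higher and 1490 lower. In 1048 genes (8.11%) every MI array lay above every sham array, and in 883 (6.83%) every MI array lay below. The rises were the larger changes: 560 called genes were at least 2-fold higher and 66 at least 4-fold higher, while 81 were at least 2-fold lower and 0 were 4-fold lower. The median difference over all genes was -0.05. With the chip as a block all 4231 called genes kept their direction and 3078 kept the call. Within chip 3 alone 4230 had the same direction, and within chip 4 alone 4148. These arrays also made the calls, so the agreement in direction is largely built in.

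Genes of cell division were higher together. Of 19 measured genes of mitosis 18 were higher and 0 lower in female MI (median log2 difference 2.08, range 0.25 to 2.69, and median 1.55 with an offset of 50 in place of 16), against 16.5% higher among all genes, and of 26 genes of DNA replication 22 were higher and 0 lower (median 1.08). Cdk1, the kinase that drives entry into mitosis, had levels of 8.55, 8.33, 7.40, 8.35 and 8.25 in female MI 1 to 5, against 5.16, 5.89, 6.06, 6.24 and 4.89 in female sham 1 to 5. Every MI value lay above every sham value, and the difference was 5.78-fold (log2 2.53, SE 0.243, adjusted p = 4.34e-07). Prc1, which bundles microtubules of the dividing spindle, had 9.86, 9.74, 8.78, 10.15 and 9.37 in MI mice and 6.37, 7.40, 7.05, 7.52 and 6.12 in sham mice, a rise of 6.44-fold (log2 2.69, SE 0.294, adjusted p = 1.71e-06). In both genes MI mouse 3 was the lowest of the MI group and yet above the highest sham mouse.

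In DNA replication the leading genes were Uhrf1, which helps copy DNA methylation behind the fork, Tyms, which makes thymidylate, and Mcm5, a subunit of the replicative helicase. Uhrf1 had 8.89, 9.10, 8.30, 8.62 and 9.19 in MI mice and 6.32, 6.0, 6.91, 7.47 and 6.01 in sham mice, 4.85-fold (log2 2.28, SE 0.248, adjusted p = 1.64e-06). Mcm5 had 8.94, 8.98, 7.93, 8.92 and 8.91 in MI mice and 6.80, 6.90, 6.63, 7.13 and 6.48 in sham mice, 3.86-fold (log2 1.95, SE 0.19, adjusted p = 4.88e-07). Neither gene's groups overlapped. Tyms rose by 4.75-fold (log2 2.25, SE 0.191, adjusted p = 1.53e-07), and Anln, an actin-binding protein of the cleavage furrow, by 5.37-fold (log2 2.42, SE 0.311, adjusted p = 8.35e-06). The probes of 3 histone H2A genes, H2ac12, H2ac15 and H2ac22, rose by between 6.95 and 7.89-fold, but these genes are near-identical copies whose probes may read each other's RNA, so the rise belongs to the family and not to a given copy.

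Since the division genes rose together, their promoters are shown. Mitotic genes are known for CCAAT boxes and for the cell cycle genes homology region, read here as TTTGAA, and replication genes for sites of E2F factors, read here as GCGGGAA. The letters below are the 150 bases before the transcription start on the gene's strand, 5′ to 3′, from RefSeq on GRCm38.p6, with matches to these motifs on either strand in capitals.
Cdk1: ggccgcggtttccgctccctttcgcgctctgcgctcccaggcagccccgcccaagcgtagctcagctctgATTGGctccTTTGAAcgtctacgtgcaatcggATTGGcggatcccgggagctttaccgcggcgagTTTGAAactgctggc
Prc1: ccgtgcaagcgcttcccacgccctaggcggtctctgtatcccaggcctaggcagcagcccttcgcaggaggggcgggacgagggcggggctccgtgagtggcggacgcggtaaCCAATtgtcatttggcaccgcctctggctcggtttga
Mcm5: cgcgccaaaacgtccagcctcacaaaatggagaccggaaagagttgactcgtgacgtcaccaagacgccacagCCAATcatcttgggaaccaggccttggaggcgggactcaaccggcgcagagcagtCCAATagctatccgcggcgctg
Uhrf1: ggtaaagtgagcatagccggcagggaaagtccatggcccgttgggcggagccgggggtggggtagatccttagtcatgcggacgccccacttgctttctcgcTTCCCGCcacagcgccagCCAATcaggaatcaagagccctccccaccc
Cdk1 lies on chr10:69352913-69353062 (minus strand), Prc1 on chr7:80294301-80294450 (plus strand), Mcm5 on chr8:75109359-75109508 (plus strand) and Uhrf1 on chr17:56303187-56303336 (plus strand), and where RefSeq lists 2 starts, as for Prc1 and Uhrf1, the first is printed. The Cdk1 promoter holds 2 CCAAT boxes, both in the reverse direction, and 2 TTTGAA elements in this stretch. That of Mcm5 holds 2 CCAAT boxes, that of Prc1 holds 1, and that of Uhrf1 holds 1 CCAAT box beside 1 E2F motif. In the 250 bases before the start CCAAT was found for 13 of the 17 mitotic genes with a promoter in the table (76.5%), 13 of 23 replication genes (56.5%) and 40.4% of 8311 genes tested. The share was not particular to division genes. CCAAT was also found for 12 of 20 genes of the citric acid cycle and pyruvate oxidation (60%). The list of branched chain amino acid breakdown, which also holds ketone body genes, had CCAAT for 11 of 18 (61.1%). Both are lists with lower genes. TTTGAA was found for 6 of 17 mitotic genes (35.3%), 3 of 23 replication genes (13%) and 12.6% of genes tested. GCGGGAA was found for 0 of 17, for 6 of 23 (26.1%) and for 8.11%. A match is a description of these letters and no evidence of binding.

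**Figure D1:**
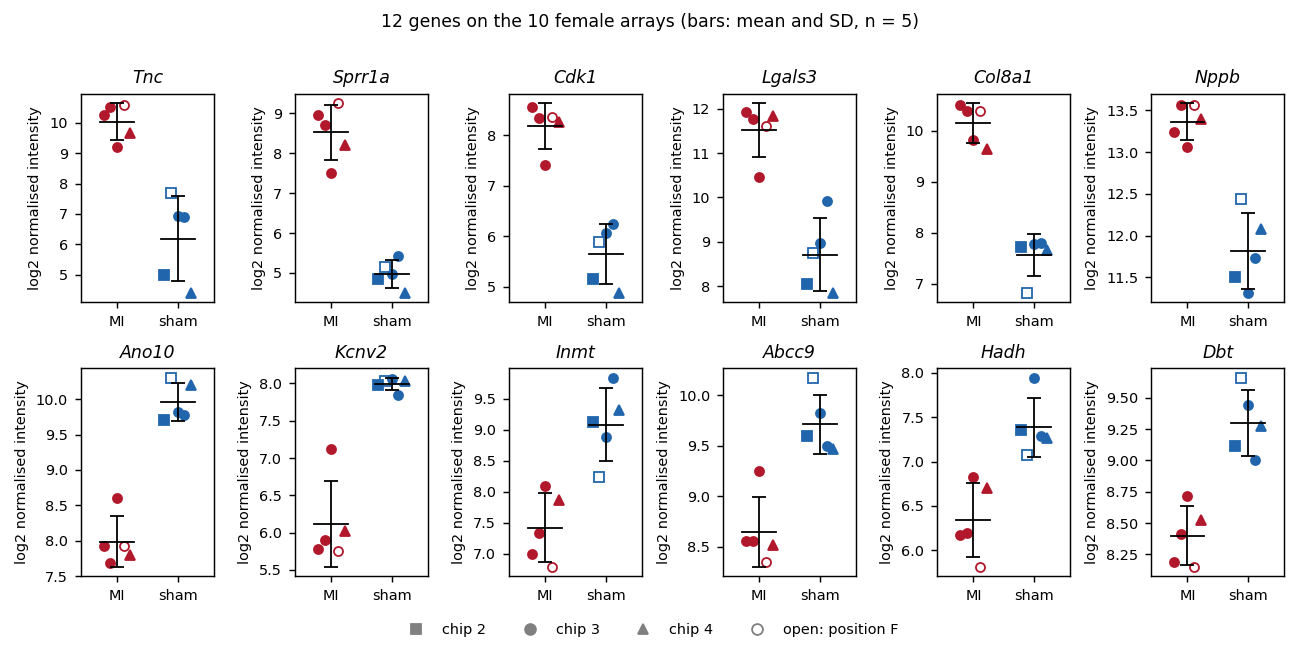
Levels of 12 genes on the 10 female arrays, as log2 normalised intensity (y axis), with female MI left of female sham. Points are mice, their shape gives the chip, open points lie in position F, and bars are the mean and SD of 5 mice. In Tnc the MI mice lie between 9.20 and 10.58 and the sham mice between 4.41 and 7.70.

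Beyond the division genes, several of the largest rises were in single genes of matrix, cornified epithelium, NAD synthesis and heme breakdown. Tnc, a matrix glycoprotein made around wounds, had 10.26, 10.51, 9.20, 10.58 and 9.67 in MI mice and 5.0, 7.70, 6.95, 6.88 and 4.41 in sham mice. The groups did not overlap, and the sham values covered more than 3 log2 units, with sham mice 1 and 5 low. The difference of 3.86 over all 10 mice (SE 0.518, adjusted p = 1.35e-05) was smaller within chip 3 (3.22) than between the 2 mice on chip 4 (5.26). Sprr1a, a small proline-rich protein of cornified epithelium that stressed heart muscle also makes, had 8.96, 8.71, 7.49, 9.25 and 8.21 in MI mice and 4.84, 5.14, 4.97, 5.44 and 4.51 in sham mice, 11.7-fold (log2 3.55, SE 0.264, adjusted p = 1.26e-07). Nmrk2, a muscle kinase that makes NAD from nicotinamide riboside, had 11.28, 10.86, 10.43, 10.68 and 11.61 in MI mice and 7.71, 7.73, 7.20, 8.81 and 7.88 in sham mice, 8.6-fold (log2 3.10, SE 0.349, adjusted p = 2.41e-06). A dimmer probe of Nmrk2 was called in the opposite direction (-1.74), while a further probe of it rose by 2.85, so the direction rests on 2 of 3 probes. Hmox1, which breaks down heme, had 8.71, 9.41, 8.23, 9.21 and 9.21 in MI mice and 5.18, 7.55, 5.67, 7.02 and 5.24 in sham mice, and sham mice 2 and 4 stood above the other sham mice.

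No fall reached 4-fold. Ano10, of the anoctamin family of membrane proteins, had 7.92, 7.69, 8.60, 7.93 and 7.81 in MI mice and 9.71, 10.30, 9.82, 9.78 and 10.20 in sham mice, and it fell by 1.97 log2 units (SE 0.175, limma adjusted p = 2.05e-07). Kcnv2, a silent subunit that modifies potassium channels, had 5.79, 5.90, 7.13, 5.75 and 6.02 in MI mice and 7.98, 8.03, 8.06, 7.85 and 8.04 in sham mice. Its sham values lay within 0.3 of each other, and MI mouse 3 was midway between the groups; the fall was 1.88 (SE 0.222, adjusted p = 3.85e-06). Inmt, a methyltransferase of small amines, had 7.0, 7.33, 8.10, 6.79 and 7.86 in MI mice and 9.13, 8.24, 8.89, 9.84 and 9.32 in sham mice. Ttll1, which adds glutamate chains to tubulin, had 8.28, 8.03, 8.94, 8.17 and 7.95 in MI mice and 9.61, 9.92, 9.75, 9.71 and 10.02 in sham mice. Both sets of groups stood apart, with differences of -1.67 and -1.53. Cbx7, a Polycomb protein, Ift81, a carrier in cilia, and Amy2a5, annotated as a pancreatic amylase, differed by -1.37, -1.38 and -1.39 (adjusted p between 2.78e-06 and 9.68e-05), again with every MI value below every sham value.

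Some genes crossed the detection limit. In 65 genes the probe was detected (detection p under 0.01) on all 5 MI arrays and on 0 of 5 sham arrays, a choice that fixes their direction. For such a gene the sham level is only a bound, and the fold sets the MI mean against a sham mean built, array by array, from the dimmest detected signal or the probe's signal if that was brighter. Crct1, a cysteine-rich gene of the epidermal complex, had 8.32, 8.84, 6.39, 7.80 and 8.26 in MI mice and was at least 8.64-fold higher (adjusted p = 1.31e-07). Cxcl10, an interferon-induced chemokine, had 6.71, 6.78, 6.37, 7.57 and 5.80 in MI mice and was at least 3.56-fold higher (adjusted p = 2.81e-07). Car9, a carbonic anhydrase induced by low oxygen, was at least 1.52-fold higher. Its list of 15 measured low oxygen targets had 3 higher and 2 lower (33.3%, against 32.7% called among all genes, median 0.09). Others of the 65 genes are known from division. The mitotic genes Kif18b, Ckap2 and Sgo1 and the cell cycle factor Mybl2 were at least 2.85-fold, 2.52-fold, 2.14-fold and 2.08-fold higher. The reverse pattern held for 18 genes and was near the limit of detection: the asparaginase-like gene Asrgl1, at 5.09, 5.54, 5.37, 5.02 and 5.25 in sham mice, was at least 1.36-fold lower in MI mice (adjusted p = 0.000122), and Ovgp1, an oviduct glycoprotein, at least 1.35-fold lower.

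Many leukocyte genes were higher. All 21 measured markers of inflammatory monocytes and macrophages were higher (median 1.44, range 0.54 to 3.35), as were 11 of 13 neutrophil markers (median 1.10), while 12 of 21 markers of resident macrophages were higher and 1 was lower (median 0.41). Arg1, the arginase of wound macrophages, had 10.09, 10.79, 8.35, 9.76 and 10.09 in MI mice and 5.60, 7.17, 7.01, 8.33 and 4.23 in sham mice, 10.2-fold (log2 3.35, SE 0.661, adjusted p = 0.000637). The groups nearly met, since sham mouse 4 lay just below MI mouse 3, and the probe was detected on 4 of 5 sham arrays. S100a8, a calcium-binding protein that fills the neutrophil cytosol, had 9.30, 10.19, 8.97, 9.84 and 10.34 in MI mice and 6.33, 8.60, 6.98, 7.78 and 7.74 in sham mice, 4.72-fold (log2 2.24, SE 0.38, adjusted p = 0.000147). Sham mouse 2 was high among the sham mice, and the groups did not overlap. Clec4d, a lectin receptor of myeloid cells, rose by 5.55-fold (log2 2.47, SE 0.355, adjusted p = 2.76e-05).

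Resident markers went both ways. The complement component C1qb (1.21), the Fc receptor-like gene Fcrls (1.30) and the chemokine Ccl8 (1.42) were higher in every MI mouse than in every sham mouse. Retnla, a resistin-like protein of alternatively activated macrophages, was lower, at 5.07, 4.81, 5.42, 4.96 and 5.49 in MI mice and 6.70, 4.97, 6.32, 6.47 and 6.87 in sham mice (log2 -1.12, SE 0.257, adjusted p = 0.00224). Sham mouse 2 was the exception, at the level of the MI mice; the difference was -1.39 (adjusted p = 1.14e-05) without the position F arrays. Of 22 genes of phagocyte remodelling 16 were higher and 0 lower (median 0.74). Lgals3, galectin-3, had 11.92, 11.76, 10.46, 11.62 and 11.83 in MI mice and 8.05, 8.75, 8.96, 9.93 and 7.85 in sham mice, and Gpnmb, a glycoprotein of lipid-laden macrophages, had 10.31, 9.96, 8.60, 11.48 and 9.90 in MI mice and 6.70, 8.29, 7.12, 7.94 and 6.35 in sham mice. MI mouse 4 was highest for Gpnmb and MI mouse 3 lowest for both. Few markers of other leukocytes were measured: 2 of 6 for T, NK and B cells were higher (33.3%, against 32.7% called among all genes). Among them was Il7r, the interleukin-7 receptor, which was at least 2.24-fold higher (adjusted p = 5.45e-06). Its probe was not detected on any sham array, so its sham level is only a bound. Of 6 mast cell markers 2 were higher (33.3%, against 32.7% called among all genes), including Kit (1.0), which other cells also make, and the other 4 gave values of -0.37 to -0.01 and did not pass.

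Of 27 chemokines and cytokines, the signals that draw leukocytes in, 16 were higher and 0 lower (median 0.78), and the other 11 gave values of -0.36 to 0.41 and did not pass. Ccl4, made by activated macrophages, had 8.75, 8.76, 7.36, 9.33 and 8.11 in MI mice and 5.33, 6.62, 5.12, 6.70 and 5.30 in sham mice, 6.27-fold (log2 2.65, SE 0.334, adjusted p = 6.87e-06). Ccl12, a monocyte attractant of mice, had 9.24, 9.42, 8.91, 9.46 and 9.33 in MI mice and 7.14, 7.54, 7.03, 7.95 and 6.88 in sham mice, 3.9-fold (log2 1.97, SE 0.228, adjusted p = 3.16e-06). The MI mice agreed closely for Ccl12, within 0.6 log2 units. Of 17 genes of the IL-6 family and acute phase 7 were higher and 2 lower (median 0.61), and 5 were higher and 0 lower with the chip as a block. Socs3, the feedback inhibitor of IL-6 signalling, rose by 2.68-fold (log2 1.42, SE 0.305, adjusted p = 0.00128), although sham mouse 2 (8.52) lay above MI mouse 1 (8.39). Of 13 genes of coagulation and the plasminogen system 10 were higher (median 0.77), led by Anxa2 (1.31), a cell surface cofactor of plasmin formation, and Plau, urokinase (1.20). Of 12 complement genes 5 were higher and 1 lower (median 0.42), with C1qb (1.21) and properdin, Cfp (1.18), among the higher ones.

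Interferon genes and antigen presentation varied between the MI mice. Of 21 interferon response genes 12 were higher (median 0.44), against 7 with the chip as a block and 9 without the position F arrays. Isg15, a ubiquitin-like protein, had 8.01, 7.68, 7.63, 8.75 and 7.0 in MI mice and 6.18, 6.57, 6.08, 6.68 and 6.85 in sham mice, 2.53-fold (log2 1.34, SE 0.255, adjusted p = 0.000445). The rise was 1.64 within chip 3 and 0.15 between the 2 mice on chip 4, and over the list the chip 4 median was -0.03. Of 11 genes of MHC class II presentation 5 were higher (median 0.56), but 2 were with the chip as a block and 2 without the position F arrays. The list mean of MI mouse 4 was 0.98 above the sham mean, and those of MI mice 2, 3 and 5 were 0.26. MI mouse 4 also had the highest mean of the interferon list (1.03), and MI mouse 5 the lowest (0.19).

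Fibroblast markers differed by state. Of 13 markers of activated fibroblasts 11 were higher and 0 lower (median 1.73), whereas of 15 markers of resting fibroblasts 5 were higher and 3 lower (median 0.12), and the sign of that last median turned with the chip as a block (-0.09). Cthrc1, secreted by activated fibroblasts, had 9.0, 8.53, 7.41, 9.47 and 8.13 in MI mice and 4.75, 5.35, 5.20, 5.96 and 4.17 in sham mice, 10.7-fold (log2 3.42, SE 0.324, adjusted p = 3.97e-07). Col8a1, a short-chain collagen of injured vessels and heart, had 10.50, 10.39, 9.81, 10.39 and 9.64 in MI mice and 7.73, 6.83, 7.78, 7.79 and 7.65 in sham mice, 6.02-fold (log2 2.59, SE 0.232, adjusted p = 2.05e-07). Both genes separated the groups in full. The 5 higher resting markers rose by 0.75 to 1.36 log2 units. Of the 3 lower ones the scavenger receptor gene Scara5 fell by 1.11 log2 units (SE 0.213, adjusted p = 0.000499). The brightest probe of gelsolin (Gsn) fell by 1.34 and a dimmer probe of it rose by 0.65, so its direction is uncertain.

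Of 15 fibrillar and associated collagens 11 were higher and 0 lower (median 1.25). Col1a1, the main chain of type I collagen, had 11.45, 10.98, 10.27, 10.81 and 10.07 in MI mice and 8.63, 8.66, 9.60, 8.95 and 7.60 in sham mice, 4.08-fold (log2 2.03, SE 0.279, adjusted p = 1.77e-05). Of 18 genes that fold and crosslink collagen 14 were higher and 0 lower (median 0.81). Lox, lysyl oxidase, had 10.56, 10.72, 9.57, 10.89 and 10.05 in MI mice and 6.65, 7.86, 7.45, 8.23 and 6.32 in sham mice, 8.33-fold (log2 3.06, SE 0.315, adjusted p = 9.29e-07). MI and sham stood apart in both genes, and Fkbp11, an ER prolyl isomerase, rose by 3.92-fold (log2 1.97, SE 0.196, adjusted p = 6.34e-07). Timp1, an inhibitor of metalloproteinases, had 12.03, 12.51, 11.37, 12.36 and 12.02 in MI mice and 8.07, 9.91, 8.57, 9.87 and 7.37 in sham mice, with sham mice 2 and 4 the closest to the MI group. The proteases Adamts4 and Mmp14 rose by 5.22-fold and 3.94-fold, and of 18 proteases and inhibitors 10 were higher and 0 lower (median 0.84). Of 14 basement membrane genes 5 were higher and 4 lower, against 6 higher and 1 lower with the chip as a block and 8 higher and 2 lower without the position F arrays. Sparc (1.33), Col4a1 (1.19) and Nid2 (1.02) were higher, and the laminin chain Lama5 (-0.78) was lower. The median of this list was 0.41, and 0.22 with the chip as a block.

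**Figure D2:**
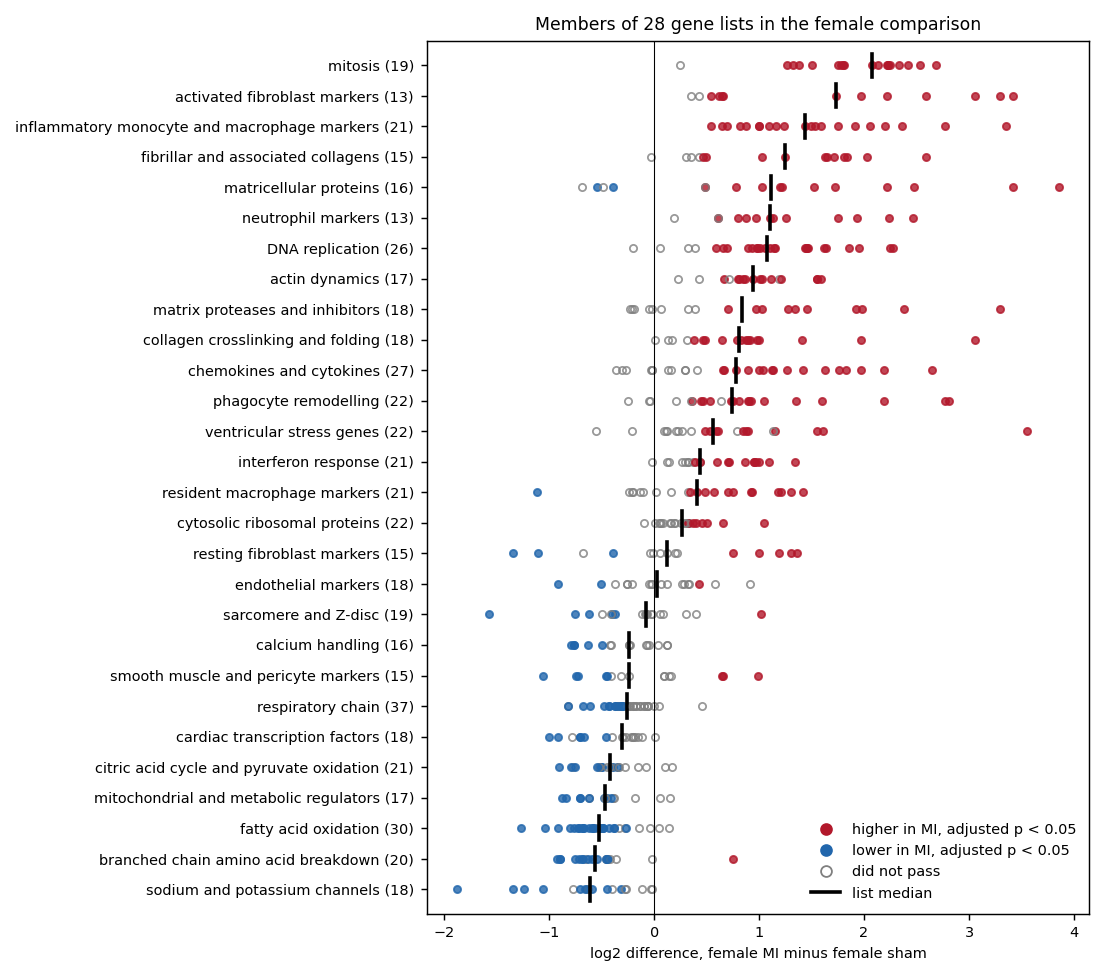
Log2 difference of each measured member of 28 gene lists in the female comparison (x axis), ordered by list median, with the number of members in parentheses. Filled points passed an adjusted p under 0.05 (higher or lower in MI), open points did not, and black ticks are medians. Mitosis has the highest median (2.08) and sodium and potassium channels the lowest (-0.61).

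Vessel wall and pericyte genes were split. Of 15 markers of smooth muscle and pericytes 3 were higher, Acta2, Tagln and Actg2, which activated fibroblasts also express, and 5 were lower (median -0.24). Abcc9, the sulphonylurea receptor subunit of pericytes and muscle, had 8.56, 8.56, 9.25, 8.35 and 8.52 in MI mice and 9.59, 10.17, 9.82, 9.50 and 9.46 in sham mice, a fall of 1.06 log2 units (SE 0.159, adjusted p = 4.2e-05). Myh11, the smooth muscle myosin, and Rgs5, a pericyte regulator of G proteins, differed by -0.74 and -0.73, with every MI value below every sham value. Of 18 endothelial markers 1 was higher and 2 were lower (16.7%, against 32.7% called among all genes, median 0.03). These were Esam (0.43), Vwf (-0.51) and Prox1 (-0.92). Prox1 is also a transcription factor of heart muscle, and Vwf lost its call without MI mouse 1 (adjusted p = 0.0607), without MI mouse 2 (0.0541) and with the chip as a block (0.117). Of 17 angiogenic factors 8 were higher and 2 lower (median 0.54), or 6 and 1 with the chip as a block, led by Angptl4 (2.04) and Angpt2 (1.01).

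Of 22 ventricular stress genes of heart muscle 11 were higher and 0 lower (median 0.56), and the other 11 did not pass, with values of -0.55 to 1.13. Nppb, brain natriuretic peptide, had 13.24, 13.57, 13.06, 13.56 and 13.40 in MI mice and 11.51, 12.44, 11.32, 11.73 and 12.08 in sham mice, 2.93-fold (log2 1.55, SE 0.278, adjusted p = 0.000255). Nppa, atrial natriuretic peptide, had 13.77, 13.73, 13.72, 13.77 and 13.61 in MI mice and 12.71, 13.30, 12.51, 12.88 and 12.75 in sham mice, 1.85-fold (log2 0.89, SE 0.16, adjusted p = 0.000269). The MI values of Nppb and Nppa lie near the top of the scale, as do those of Myh6, and how far that limits their folds was not tested. Acta1, skeletal alpha actin, rose by 2.23-fold (log2 1.15, SE 0.314, adjusted p = 0.00759), but MI mouse 5 (11.27) lay below sham mouse 5 (11.47) on chip 4. Tnfrsf12a, the receptor of the cytokine TWEAK, rose by 3.06-fold (log2 1.61, SE 0.328, adjusted p = 0.000825). Myh6 (log2 -0.08, adjusted p = 0.517) and Atp2a2, the calcium pump of the sarcoplasmic reticulum (log2 0.04, adjusted p = 0.736), did not pass, and both lie near the top of the scale. Dimmer probes of Myh6 (-1.31) and Atp2a2 (0.28 and -0.37) gave other values and did not pass when every kept probe was tested. Myh7, the slow myosin chain, did not pass either (log2 -0.55, adjusted p = 0.161), and with the chip as a block it was lower (log2 -0.94, adjusted p = 0.0319).

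Of 19 sarcomere and Z-disc genes 1 was higher and 5 were lower, 31.6% against 32.7% called among all genes (median -0.08, and -0.28 with 75th percentile scaling). Tpm1, tropomyosin, was the higher one (1.02). Ky, a muscle protease-like gene of the Z-disc, had 7.51, 7.23, 8.63, 7.75 and 8.16 in MI mice and 9.47, 9.51, 9.29, 9.42 and 9.44 in sham mice, a fall of 1.57 (SE 0.24, adjusted p = 5.41e-05). The sham mice lay within 0.3 of each other, and MI mouse 3 was the closest to them. Of 18 sodium and potassium channel genes 0 were higher and 10 lower (median -0.61), or 7 lower with the chip as a block, and the 8 that did not pass gave values of -0.77 to -0.02. Kcnip2, the subunit that shapes the transient outward current, had 6.48, 6.41, 7.35, 6.0 and 5.77 in MI mice and 7.73, 7.74, 8.45, 7.62 and 7.19 in sham mice, and Scn4b, a sodium channel subunit, had 6.40, 6.46, 7.63, 7.17 and 6.33 in MI mice and 8.33, 8.39, 7.61, 7.79 and 8.08 in sham mice. In each of them MI mouse 3 overlapped the sham range, and the falls were 1.34 and 1.24 (adjusted p = 0.00238 and 0.000415). Of 16 calcium handling genes 5 were lower and 0 higher (median -0.24), or 3 lower with the chip as a block. That is 31.2% called, against 32.7% called and 16.3% lower among all genes. Hrc, which buffers calcium in the sarcoplasmic reticulum, was among the lower ones (-0.79). Pln, phospholamban, had 12.11, 11.98, 12.61, 8.58 and 12.56 in MI mice and 12.93, 7.53, 13.03, 12.74 and 12.81 in sham mice; the 2 position F arrays were several log2 units below the rest, and without them it was lower in MI (log2 -0.56, adjusted p = 0.00378).

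Of 18 cardiac transcription factors 0 were higher and 6 lower (median -0.30), 33.3% called against 32.7% called and 16.3% lower among all genes. Hopx, a homeodomain-only cofactor of heart muscle, had 11.29, 11.20, 11.98, 10.35 and 11.77 in MI mice and 12.32, 12.15, 12.43, 12.40 and 12.28 in sham mice, and MI mouse 4 was the lowest. It fell by 1.0 (SE 0.224, adjusted p = 0.00183), and Prox1 by 0.92. Of 16 genes of adrenergic and angiotensin signalling 3 were higher and 6 lower (median -0.24), with the adenylyl cyclase Adcy6 (-0.67) and the phosphodiesterase Pde3a (-0.80) below sham in every MI mouse. Of 12 genes of junctions and the intercalated disc 1 was lower and 0 higher (8.33%, against 32.7% called among all genes).

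Many genes of fatty acid and amino acid oxidation were lower. Of 30 genes of fatty acid oxidation 22 were lower and 0 higher (median -0.53), against 16.3% lower among all genes. In a list of 20 for branched chain amino acid breakdown 14 were lower and 1 higher (median -0.56). That list also holds genes of ketone body use, so not all of its members belong to the breakdown. Hadh, the mitochondrial hydroxyacyl-CoA dehydrogenase, had 6.17, 6.19, 6.83, 5.81 and 6.71 in MI mice and 7.36, 7.07, 7.94, 7.28 and 7.27 in sham mice, a fall of 1.04 (SE 0.238, adjusted p = 0.00213). Acot1, a thioesterase of acyl-CoA, had 8.0, 7.87, 8.71, 8.18 and 7.89 in MI mice and 9.57, 9.01, 9.13, 9.62 and 9.67 in sham mice, a fall of 1.27. Dbt, the core of the branched chain ketoacid dehydrogenase, had 8.19, 8.42, 8.71, 8.15 and 8.53 in MI mice and 9.11, 9.66, 9.45, 9.01 and 9.27 in sham mice, a fall of 0.90 (SE 0.132, adjusted p = 3.31e-05). In none of these 3 genes did the groups overlap.

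Of 21 genes of the citric acid cycle and pyruvate oxidation 10 were lower and 0 higher (median -0.42), for example Dlat (-0.79), a core subunit of pyruvate dehydrogenase, and Suclg2 (-0.75). Of 37 respiratory chain genes 14 were lower and 0 higher, with a median of -0.26, and 5 were lower with the chip as a block. The 14 are 37.8% called, against 32.7% called and 16.3% lower among all genes. Of 17 metabolic regulators 9 were lower and 0 higher (median -0.47), among them the carbohydrate-response factor Mlxipl (-0.88) and the retinoid receptor Rxrg (-0.84). Genes listed for glycolysis and glycogen went both ways: 4 were higher and 8 lower of 24. The 24 include a gene of membrane anchor synthesis, which did not pass. The glucose transporter Slc2a1 (0.89), the platelet phosphofructokinase Pfkp (0.94) and the liver phosphorylase Pygl (0.77) were higher. The insulin-responsive transporter Slc2a4 (-0.89), the heart isoform Pfkfb2 (-1.06) and the muscle phosphorylase Pygm (-0.85) were lower. In creatine metabolism the muscle kinase Ckm differed by -0.87 and the brain form Ckb by 0.56; with 75th percentile scaling Ckb lost its call (adjusted p = 0.0737).

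Genes of general cell functions were mostly higher where called. Of 17 genes of actin dynamics 13 were higher and 0 lower (median 0.94), with Tmsb10, a thymosin, and Capg, an actin capping protein, higher by 1.55 and 1.59. The 3 brighter probes of Actb rose by 0.89 to 1.28, and 2 dimmer probes fell by 2.33 and 2.40, so the gene's direction depends on the probe. Gapdh did not pass (log2 0.05, adjusted p = 0.756). Of 22 cytosolic ribosomal proteins 7 were higher and 0 lower (median 0.27). Of 19 genes of the endoplasmic reticulum 6 were higher and 0 lower (median 0.28), among them Sec61b and Ssr2 of the protein channel (0.87 and 0.87). These are 31.8% and 31.6% called, against 32.7% called and 16.5% higher among all genes. Of 12 clock genes 3 were lower and 0 higher (median -0.44), or 5 lower with the chip as a block. That is 25% called, against 32.7% called and 16.3% lower among all genes. Nr1d1, the repressor also called Rev-erb alpha, differed by -0.85. Of 15 immediate early genes 3 were higher and 2 lower, 33.3% against 32.7% called among all genes, Egr2 being the largest rise (1.42).

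Markers of other tissues that a sampled piece can hold varied between the MI mice, and their part in the results above was not tested. The mean of 8 atrial markers was -1.23 and -1.03 relative to the sham mean in MI mice 1 and 4, -0.04 and -0.05 in MI mice 2 and 3 and 0.53 in MI mouse 5, against -0.37 to 0.34 in sham mice. Of these 8, Nppa was higher and 2 were lower (37.5%, against 32.7% called among all genes). The mean of 4 adipose markers lay between -1.04 and 0.31 in MI mice and between -0.32 and 0.53 in sham mice. Of the 4, 1 was called (25%, below the share among all genes). Means of 6 skeletal muscle markers differed less, from -0.11 to 0.25 in MI mice and from -0.19 to 0.06 in sham mice. Of 8 epicardial markers 2 were higher (25%, against 32.7% called among all genes). The other 6 gave values of -0.27 to 0.78 and did not pass. Aldh1a2, which makes retinoic acid, was the largest rise, with 6.86, 7.21, 6.73, 7.25 and 6.71 in MI mice and 5.58, 5.84, 5.62, 5.85 and 4.91 in sham mice.

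**Figure D3:**
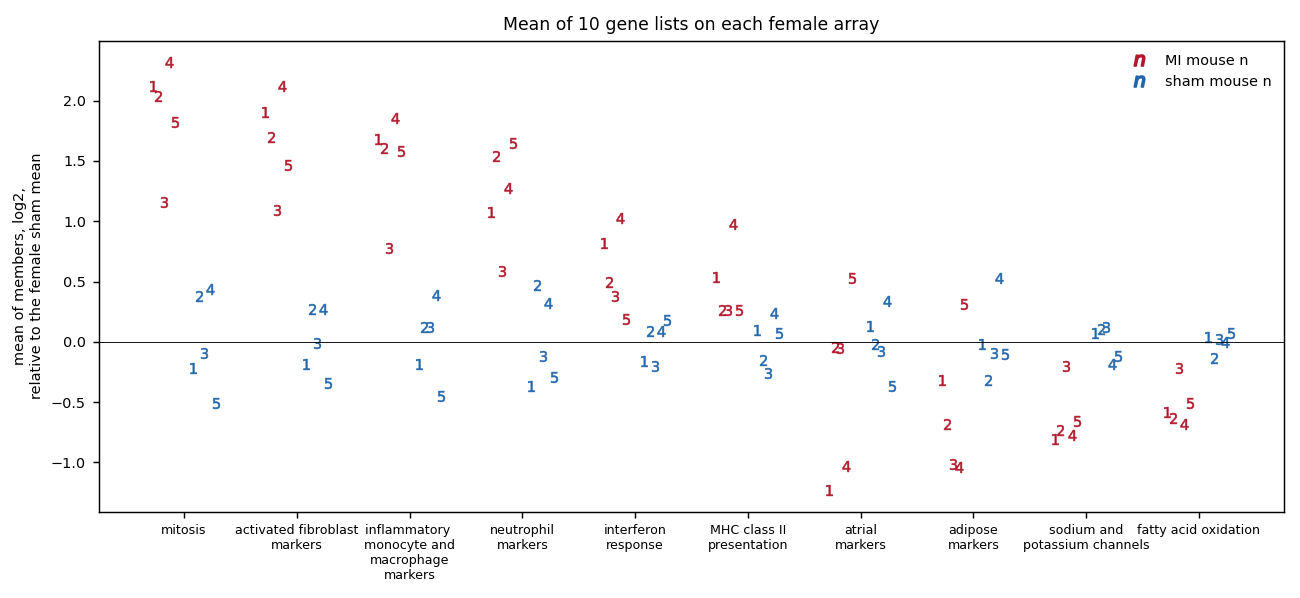
Mean of the members of 10 gene lists on each female array (y axis, log2, relative to the mean of the 5 sham arrays), with female MI left of female sham in each list; numerals are mouse numbers. MI mouse 3 is the lowest MI mouse for mitosis (1.16) and the highest for fatty acid oxidation (-0.22), and atrial markers spread from -1.23 to 0.53 among MI mice.

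The arrays of the ligated mice did not lie equally far from the sham mean. With 1 array per mouse, differences between mice, sampled pieces and arrays cannot be told apart here. MI mouse 3 was the MI array nearest to the sham mean in 2930 of the 4231 called genes (69.3%) and the farthest in 48 (1.13%). MI mouse 4 was the farthest in 1887 (44.6%) and the nearest in 292 (6.9%), and it lay in position F. The median distance from the sham mean over called genes, taken in the direction of the call, was 0.32 for MI mouse 3 and between 0.58 and 0.75 for the other 4. In sham mice no array stood out to this degree: the nearest to the MI mean was sham mouse 2 in 31.5% and sham mouse 4 in 29% of called genes.

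The weaker shift of MI mouse 3 ran through rising and falling lists. Of 40 lists with at least 5 called members, its list mean was the closest to sham in 30 and the farthest in 1. Its mean was 1.16 above sham for mitosis, against 1.82 to 2.32 in the other MI mice, and 0.78 for inflammatory monocytes and macrophages, against 1.58 to 1.86. For fatty acid oxidation it was -0.22, against -0.68 to -0.51. These are descriptions of called genes and carry no test. Without MI mouse 3 limma called 2292 genes higher and 2342 lower. Its array detected 17300 probes, against 17261 to 17715 on the other MI arrays. Its correlation with its group was 0.9851, against 0.9794 to 0.9949, and its array weight was 0.517, against 0.457 to 2.32. The cause of its weaker shift was not tested.

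**Figure D4:**
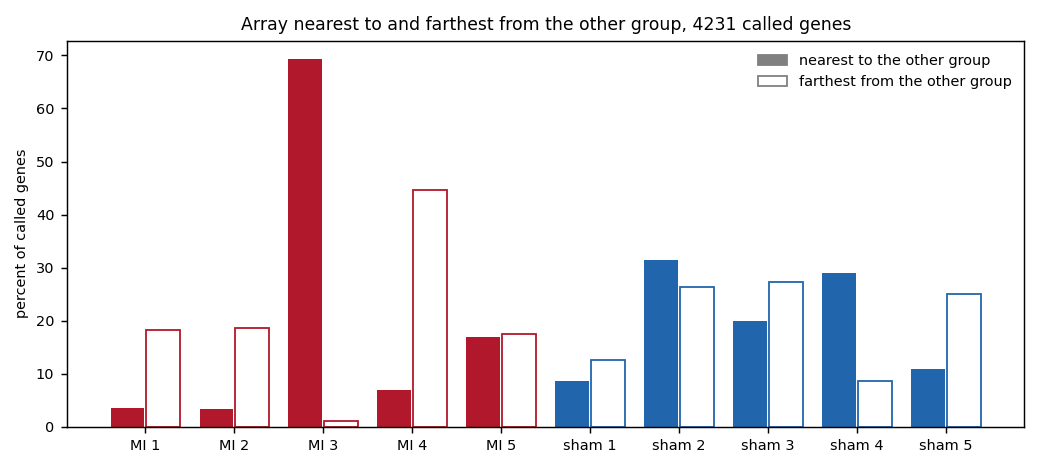
Percent of the 4231 called genes (y axis) in which each female array was the nearest to the mean of the other group (filled bars) or the farthest from it (open bars), among the 5 arrays of its own group, with MI mice left of sham mice. MI mouse 3 was nearest in 69.3% and MI mouse 4 farthest in 44.6%.

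In the males of the first cohort the same contrast gave 1263 higher and 1110 lower genes. Of the 4231 genes called in females 4016 had the same direction in males, 1835 were called there in the same direction and 0 in the opposite one. The male difference was the smaller in 3708 of the 4231, and of the 2373 genes called in males the female difference was the larger in 1326; each count was made on genes chosen in the cohort named first. The test of the difference itself, the interaction of sex and surgery, called 0 genes (smallest adjusted p 0.554), with 1091 genes (8.44%) at an unadjusted p under 0.05. With array weights it called 31 genes, 10 positive and 21 negative as female minus male difference. Sex and chip nearly coincide in this series, since chip 2 alone held both sexes, so a difference between cohorts and one between chips cannot be told apart.

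Some named genes had a sizeable female and a small male difference without passing that test on unweighted arrays. Fign, a microtubule-severing enzyme, had 5.70, 6.05, 6.49, 5.61 and 6.40 in female MI and 7.37, 6.79, 7.69, 7.20 and 7.23 in female sham mice. Its difference was -1.20 in females and 0.01 in males (unadjusted p = 0.000224, adjusted 0.554). With array weights Fign passed by limma (interaction -1.34, adjusted p = 0.0118), as did the named genes Amy2a5, Cbx7 and Pde3a (adjusted p = 0.0404), Il7r (0.0441) and Cxcl10 (0.0488). Acta1 differed by 1.15 in females and -0.12 in males (unadjusted p = 0.00906, adjusted 0.554). Tnfrsf12a differed by 1.61 and 0.34 (unadjusted p = 0.0123, adjusted 0.554). By contrast Tnc (3.86 in females, 3.71 in males), Col1a1 (2.03 and 2.03) and Arg1 (3.35 and 3.36) differed alike in size in the 2 cohorts, though alikeness was not tested. List medians were 2.08 in females and 1.5 in males for mitosis, and 1.73 in females and 0.84 in males for activated fibroblasts. For fatty acid oxidation they were -0.53 and -0.23. The medians of a list can fall on different genes in the 2 cohorts. Taken gene by gene, the median female minus male difference was 0.41 for mitosis, 0.19 for activated fibroblasts and -0.25 for fatty acid oxidation. Fatty acid oxidation had 22 lower genes in females and 6 in males, and the interaction called 0 of its 30 genes.

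**Figure D5:**
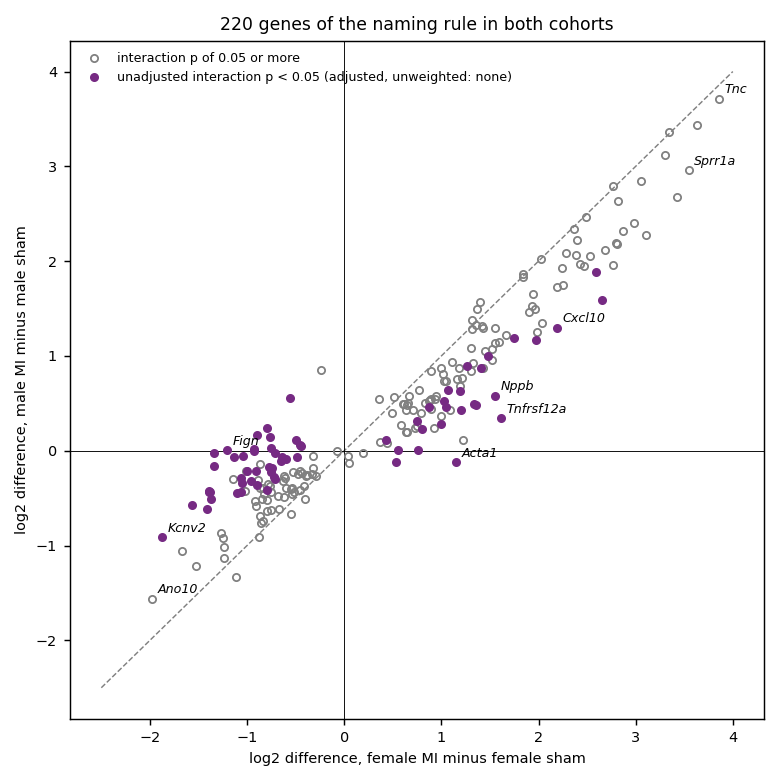
Log2 difference of MI minus sham in females (x axis) and in males (y axis) for the 220 genes chosen by the naming rule, of which the text describes a part; the dashed line marks equal differences, and filled points had an unadjusted interaction p under 0.05. Tnc lies at 3.86 and 3.71, Fign at -1.20 and 0.01, and no gene passed after adjustment on unweighted arrays.

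Probes of the same gene did not always agree. Called probes went both ways for 21 genes, among them Actb, Gsn, Nmrk2 and the myelin gene Mbp, whose brightest probe rose by 0.65 while another fell by 0.72. The tested value of each gene is that of its brightest probe, and for those 21 genes its direction depends on that choice.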

How the data were processed

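Illumina BeadChip arrays of the left ventricle gave a probe intensity and a detection p-value for each of 45281 probes per array. The intensities and detection p-values were deposited by the authors without normalisation between arrays, and the deposited log2 matrix, quantile normalised to judge by its values, served as an alternative only. The labels' protocols name an RNeasy Fibrous Tissue kit and Ambion MessageAmp labelling; scanner software is not given in the sources used here.

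All 20 arrays were corrected and quantile normalised with neqc of limma 3.58.1 (R 4.3.3, offset 16), which takes log2. Kept were 18683 probes with a detection p under 0.01 on at least 5 arrays. Each gene is its brightest kept probe, which gave 12921 genes and unnamed probes, 10278 with a symbol. Of all probes 34885 had 1 symbol in GEO's platform annotation, 18 had several and 10378 had none listed. A 4-group limma model with 16 residual degrees of freedom gave the contrasts, adjusted by Benjamini-Hochberg and called at an adjusted p under 0.05. Nothing states separate cages or surgery days, and the number of arrays limits the precision. The procedure was tested on simulated data first.

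The cohort, gene lists and tests were chosen with earlier results of these data known. Genes were named by a rule: the 15 largest non-overlapping rises and falls, up to 3 called genes per list and direction, fixed heart genes, genes detected in 1 group only, and the most variable called genes. Genes of this rule that add nothing further were not described. Mice of the same number were compared by the correlation of deviations from the group means, and 2 of the 5 values fell below 0. The numbers follow array order, so this cannot show whether mice were paired. Normalisation, filter, chip, position, array and weighting alternatives were run.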

Additional observations from a re-analysis of the deposited data

Results flagged for a closer look

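In 86 groups of 5 values (43 genes, MI and sham mice apart), 11 had an array far from its group by Dixon's test, where chance gives about 1 in 20, or 4.3. MI mouse 3 was the distant array in 6 of them, each time on the side of the sham mice: it was high for Abcc9 (9.25, next 8.56), Ano10 (8.60, next 7.93) and Kcnv2 (7.13, next 6.02), and low for Cdk1 (7.40, next 8.25), Lgals3 (10.46, next 11.62) and Mcm5 (7.93, next 8.91). These genes share that array and are not independent. Position F arrays were distant in 4: MI mouse 4 was low for Pln (8.58, next 11.98), and sham mouse 2 was low for Pln (7.53, next 12.74), Retnla (4.97, next 6.32) and Col8a1 (6.83, next 7.65). Sham mouse 5 was low for Aldh1a2 (4.91, next 5.58).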

How the results depend on the processing

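Of the 115 genes described in the text, a part of the 220 chosen by the naming rule, 109 were called, and 107 of these 109 kept the call under every scaling, filter, chip block, position and weighting alternative, leaving aside the minimum fold and chip 3 alone; Ckb and Vwf are the exceptions, and Vwf is also the 1 gene that lost its call without a single array. Within chip 3, with 4 MI and 2 sham arrays, 676 genes were higher and 270 lower, and against a minimum fold of 1.5 (limma's treat) 357 were higher and 26 lower. With array weights, which gave female sham 2 a weight of 0.215, the interaction of sex and surgery called 31 genes, 10 positive and 21 negative as female minus male difference; without weights it called 0. The chip as a block gave 1958 higher and 1420 lower genes (58% higher, against 50.2% without it), and 75th percentile scaling gave 1831 and 2204. Leaving out each array in turn gave 1815 to 2319 higher and 1649 to 2342 lower genes, and a difference in detected probes of -99.3 to 276. Causes of these shifts were not tested. Signal over background limits dim genes, whose folds shrink with a larger offset.

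The replicate numbers follow array order, so they cannot show whether mice were paired. Deviations of same-numbered MI and sham mice correlated at 0.10, -0.06, 0.27, -0.05 and 0.32. The mean correlation of the same MI mice with the other sham mice was -0.00, 0.02, -0.02, -0.13 and 0.03. With the number as a replicate block limma called 1776 genes higher and 1506 lower, and 0 for the interaction.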
